A study of Mus musculus with 2 samples.

Results

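The 5′ flank of the immunoglobulin heavy chain (Igh) locus is the stretch of chromosome 12 that lies past the last variable (VH) gene segments, at the end of the locus opposite to the constant-region genes. Its contacts were measured by 5C, in which fixed chromatin is cut with HindIII and ligated, and each junction between a fragment read by a forward primer and one read by a reverse primer is counted. The flank was taken as every assayed fragment whose midpoint lies at or above 117250000 (mm9), an approximate limit. This gave 17 of 206 fragments, 8 read by forward and 9 by reverse primers, which span 117265258 to 117350186 (84.9 kb, or 2.82% of the assayed interval). A contact of the flank was any forward-by-reverse primer pair with at least 1 end among these fragments, zeros included, and 1674 of 10584 pairs met this rule (15.8%). Of these, 72 join fragments of the flank with each other, 1074 join the flank with the VH part of the locus and 528 join it with the constant side.

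Both libraries are of C57Bl/6 mice, from CD43-negative resting splenic B cells that were isolated with magnetic beads and not stimulated. They form 1 group of 2 biological replicates, so there is no contrast between conditions. An exact permutation test over 2 libraries (sign flips, two-sided) cannot give a p below 0.5, so none is reported. Differences are set against the spread between the libraries. Replicate 1 held 16067416 counts and replicate 2 held 15096402. The count tables hold no gene expression, so the B cell label was not checked here. Each count pools many cells and both alleles of the locus.

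In the developing B cell the Igh locus is rearranged: a DH segment joins a JH segment, and a VH segment is then joined to them. The locus folds so that VH segments far away on the chromosome can come near the DH and JH segments. In mature splenic B cells recombination has already taken place, and DNA between joined segments is lost from the rearranged allele, so distances in the reference genome are not those of every allele in these cells. In the RefSeq table of assembly GRCm38, the gene past the last VH segment (Ighv1-86) is Zfp386, which encodes a zinc finger protein, and the next protein-coding gene is Vipr2, which encodes a receptor for vasoactive intestinal peptide. That table is of another build, so it was used only for the order of genes and places no fragment in any of them.

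The flank was read out mainly through contacts with itself. The 72 pairs within it held 2376265 counts in replicate 1 and 2232762 in replicate 2, or 14.8% of each library (95% Wilson intervals 14.77% to 14.81% in both, for counting error only). All pairs of the flank together held 16.3% ± 0.109 of the counts (SD, n = 2). The 1074 pairs with the VH part held 0.791% ± 0.0425, and the 528 pairs with the constant side held 0.694% ± 0.0655. The median count per pair was 2360 and 1916 in replicates 1 and 2 within the flank, 48 and 52 with the VH part, and 113 and 116 with the constant side. Both libraries thus gave the same order, with the flank's own contacts far above the others and the far end of the locus above the VH part that lies between.

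The counts of flank pairs agreed between libraries less well than their sums. Across pairs, which are not independent replicates and share primers, Spearman's rho between the replicates was 0.84 for all flank pairs, 0.98 within the flank, 0.80 with the VH part and 0.82 for pairs over 2.5 Mb apart, against 0.93 for pairs with no end in the flank. The libraries were not copies: for flank pairs, chi-square between them was 27.2 per degree of freedom (1659 degrees), where sampling alone gives about 1. The median fold difference was 1.32 over the 548 flank pairs that reached 100 counts in each library. Counts of 0 were found in 40 flank pairs in replicate 1, in 37 in replicate 2, and in 14 in both. All 14 join the flank with the VH part. By sampling error alone, a count of 0 allows up to about 3 counts, which is 1.87e-05% of replicate 1 and 1.99e-05% of replicate 2. The libraries differed by more than sampling, so the spread between them can exceed this limit.

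Within the flank, 5 pairs join adjacent fragments on the 2 sides of a HindIII site, where chromatin that stayed uncut or was joined again gives the same product as a contact. F850-R851 (117345114 to 117346619 and 117346620 to 117350186), at the far end of the assayed interval, had 1074205 and 1036286 counts, which is 6.69% and 6.86% of the libraries in a single pair. F828-R827 had 92569 and 82509 counts, F832-R831 had 41048 and 39355, F820-R819 had 27625 and 25711, and F820-R821 had 2123 and 1731. Neighbouring fragments were thus joined at counts that differed far more between pairs than between libraries. These 5 pairs made up 52.1% and 53.1% of the counts within the flank and were left out of all contact levels.

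To compare contacts at equal distance, the mean count of flank pairs was divided by that of pairs with no flank end in the same distance bin. The other 67 pairs within the flank had a mean count 2.84 ± 0.0920 times (SD, n = 2) that of 757 such pairs elsewhere in the locus. The ratio was 2.78 in replicate 1 and 2.91 in replicate 2. The excess was not spread evenly along the flank. When the flank was split at 117300000, the 27 pairs within its outer part of 11 fragments had 5.42 ± 0.223 times the mean count of other pairs. The 7 pairs within its inner part of 6 fragments, next to the VH genes, had 0.903 ± 0.0311 times, and the 33 pairs between the parts had 0.491 ± 0.0202 times. By medians in each bin, which single high pairs move less, these ratios were 5.54 and 5.58 in replicates 1 and 2 for the outer part, 2.40 and 2.19 for the inner part, and 1.38 and 1.24 between the parts. By counts the outer part was highest with either summary, whereas the inner part and the pairs between the parts lay below other pairs by the mean and above them by the median. After iterative correction, which scales counts until every primer has the same sum, the outer part no longer stood apart. The ratios were then 1.37 and 1.43 within the outer part, 1.48 and 1.41 within the inner part, and 1.05 and 1.07 between the parts.

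A few pairs of the outer part carried most of these counts. F837-R845, 17.5 kb apart, had 356473 and 307634 counts, where 14996 and 13758 were expected at this distance. F842-R840, 4.49 kb apart, had 236352 and 249652 counts, and F837-R840, 3.76 kb apart, had 184420 and 186182. The last 2 of these pairs were picked once their values were known. The 3 pairs held 68.3% and 71.0% of the counts within the flank outside shared sites, and without F837-R845 alone the ratio of 2.84 was 2.00. At the low end of the flank, F820-R827, 8.08 kb apart, had 165 and 47 counts, and F820-R810, 27.2 kb apart, had 126 and 32. Both of these low pairs involve F820, the fragment with the lowest median count with the VH part.

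**Figure D1:**
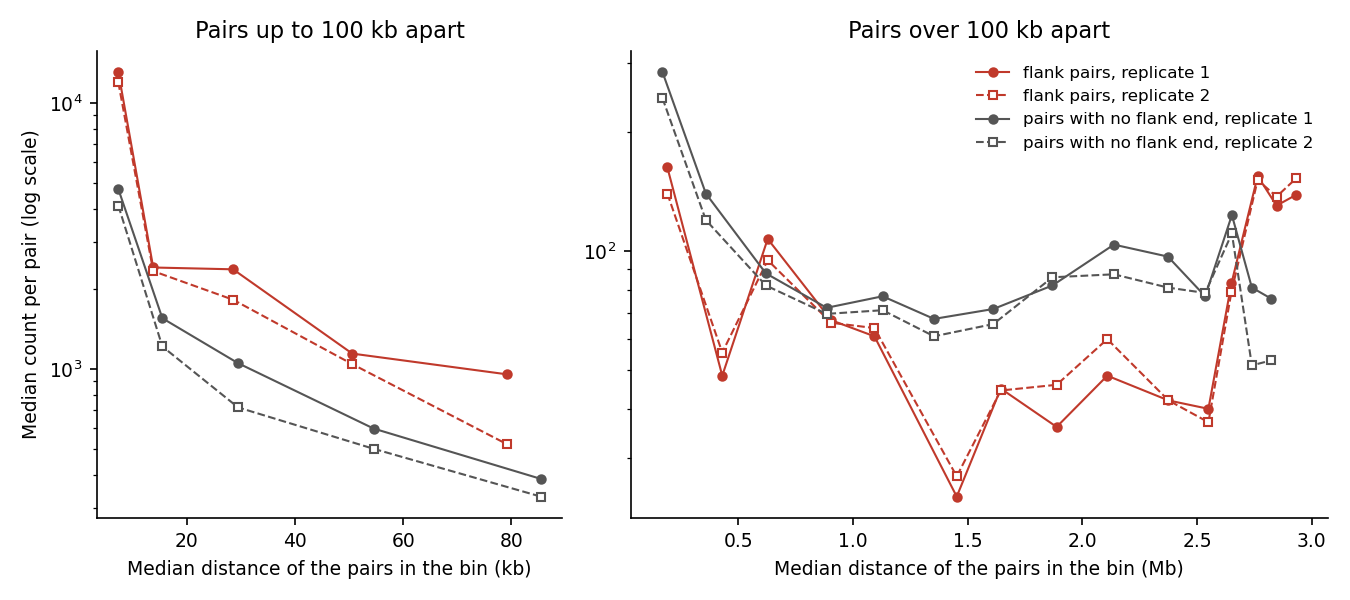
Median count per pair (log scale) against distance for pairs with an end in the flank (red) and pairs with none (grey), per distance bin and library, with pairs that share a HindIII site left out. Up to 100 kb the flank lies above the other pairs, from 0.75 to 2.7 Mb it lies below them, and past 2.7 Mb its medians are 131 to 155. At 2.7 to 2.8 Mb the other pairs have medians of 81 and 51.5.

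With distance from the flank, counts were first steeply lower and then higher again at the far end. Between 0.1 and 0.25 Mb the median flank pair had 163 counts in replicate 1 and 140 in replicate 2, against 284 and 244 for other pairs. Between 0.25 and 0.5 Mb it had 48.5 and 55.5, against 140 and 120. From 0.5 to 0.75 Mb it was 108 and 95, somewhat above the 88 and 82 of other pairs. The lowest medians of the flank, 24 and 27, lay between 1.25 and 1.5 Mb, where other pairs had 67.5 and 61. Past that point the flank stayed low up to 2.6 Mb (40 and 37 at 2.5 to 2.6 Mb). It then stood at 155 and 152 at 2.7 to 2.8 Mb, against 81 and 51.5 for other pairs. In every bin the flank lay on the same side of the other pairs in both libraries.

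The flank's contacts with the VH part were together at 0.579 ± 0.0221 times (SD, n = 2) the mean count of other pairs at the same distances, over 1074 pairs. These other pairs include those of the constant side, which has an end in 5436 of all 10584 pairs. Its fragments had median summed counts of 227227 and 196293, against 37506 and 34084 for fragments of the VH part. The ratios here and by window are thus not against VH pairs alone, and the part of this difference in them was not tested. The VH part was read in 5 windows of 500 kb below the flank, of which the last reaches to 114750000 and may hold sequence before the first VH genes. Window 1 (116750000 to 117250000), next to the flank, had a median of 75 and 67.5 counts over 144 pairs and 0.346 ± 0.0113 times the mean of other pairs. Window 2 had medians of 76.5 and 64.5 and 0.815 ± 0.0128 times. Window 3 had medians of 46 and 46 and 0.818 ± 0.0689 times. Window 4 (115250000 to 115750000) had the lowest medians, 39 and 44 over 338 pairs, and 0.360 ± 0.0124 times. Windows 1 and 4 were therefore the low points, each below windows 2 and 3 by more than the spread between libraries. After iterative correction this order was lost: windows 1 to 4 were at 0.546, 0.471, 0.578 and 0.457.

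Window 5 (114750000 to 115250000) was at 1.11 ± 0.0860 times, but this rested on 1 pair. F165-R819, with 16225 and 16643 counts, lies in it, and without that pair the ratio was 0.566. The median pair of window 5 had 42 and 51 counts, close to windows 3 and 4. Windows 2 and 5 thus depended on the summary: by medians in each bin window 2 was at 1.01 ± 0.0300 and window 5 at 0.546 ± 0.0974. Windows 1, 3 and 4 stayed below 1 by medians too, at 0.586, 0.814 and 0.513.

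**Figure D2:**
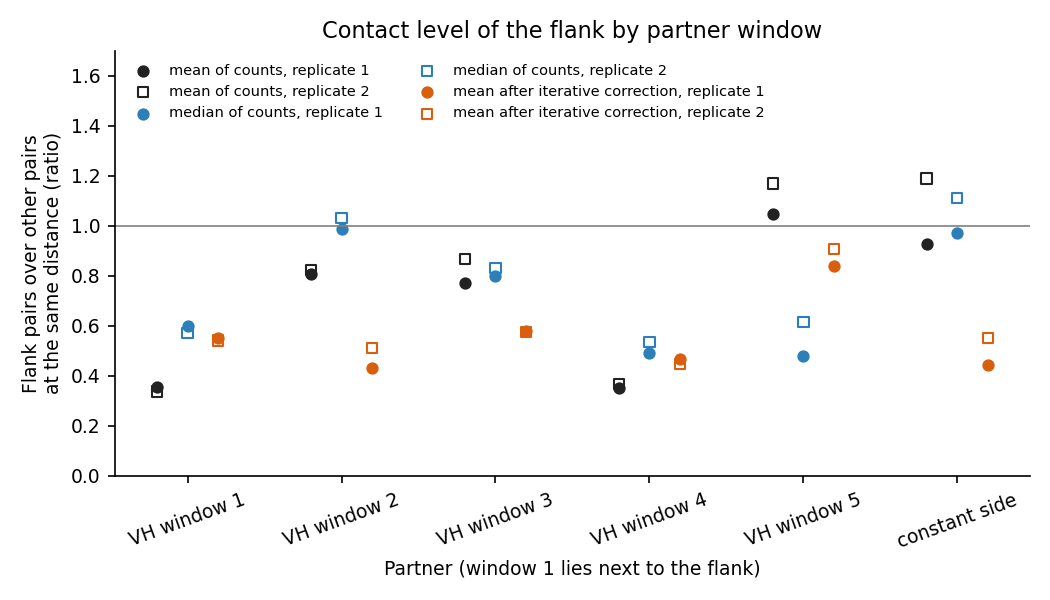
Ratio of flank pairs to pairs with no flank end at the same distance, by partner window, for each library (filled circles replicate 1, open squares replicate 2), from mean counts (black), median counts (blue) and means after iterative correction over primers (orange). Windows 1 and 4 lie below 0.65 by all summaries, while window 5 and the constant side lie on both sides of 1.

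By counts, windows 1 and 4 had levels as viewpoints close to that of the flank. With each stretch in turn as the viewpoint, over all its pairs from 0.1 to 2.5 Mb and so with different partners, the flank was at 0.578 and 0.610 times the pairs without it in replicates 1 and 2. Window 1, the VH stretch next to it, was at 0.663 and 0.607, and window 4 at 0.565 and 0.554. The constant side, at the other end of the locus, was at 2.12 and 2.26. After iterative correction the flank was at 0.563 and 0.579 and the 6 other stretches ran from 0.799 to 1.42. Window 1 was then at 1.41 and 1.38 and window 4 at 0.809 and 0.799, so neither stayed close to the flank. In uncorrected counts, shared-site pairs included, contacts within the flank made up 69.0% to 98.6% of the sum of every flank fragment but R810. Their share in the corrected sums, and its part in the corrected level, were not tested. When iterative correction was run on pairs over 100 kb apart only, the flank's level with the VH part was 1.22 ± 0.0469, on the other side of 1. That run gave every primer the same sum over pairs of which none lie within the flank. The part of this scaling in the level was not tested. With iterative correction on all pairs that share no site the flank-VH level was 0.571 ± 0.0101. With additive effects of each primer removed on a log2 scale it was 0.950 ± 0.0327. The direction of the flank-VH level thus turned with the primer correction only in the run on pairs over 100 kb.

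End-to-end contacts, over 2.5 Mb, joined the flank with the constant side and the lowest part of window 5. The 557 such pairs had a median of 110 and 109 counts in replicates 1 and 2, and the 598 flank pairs 1 to 2 Mb apart had 41.5 and 44. The end-to-end median was 2.56 ± 0.123 times (SD, n = 2) the mid-range median. The same order held for each of the 17 flank fragments in both libraries. The ratio was lowest for R831 in replicate 1 (1.27) and for R851 in replicate 2 (1.24). It was highest for F820, whose end-to-end medians were 29 and 40 against mid-range medians of 3 and 2. The partners of the compared pairs differed as well: the median summed count of a constant-side fragment over all its pairs was 227227 and 196293, and that of a fragment in the 5 windows was 37506 and 34084. After iterative correction the end-to-end ratio was 1.19 ± 0.00409, and 9 of 17 fragments were still above 1 in both libraries while 4 were below 1 in both.

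Against pairs of equal length with no end in the flank, the end-to-end contacts of the flank were not set apart with the flank limit used. Such pairs join the upper VH stretch with the constant side. Over the 3 distance bins from 2.5 to 2.8 Mb that had at least 20 of them, the mean count of 319 flank pairs was 1.03 ± 0.171 times that of 146 other pairs. The pooled ratio was 0.907 in replicate 1 and 1.15 in replicate 2, so its direction differed between the libraries. Without the highest pair, F842-R83, it was 0.912. Single bins kept their direction in both libraries. Mean flank counts were 95.4 and 91.5 against 139 and 132 at 2.5 to 2.6 Mb, and 151 and 173 against 214 and 186 at 2.6 to 2.7 Mb. At 2.7 to 2.8 Mb they were higher, 231 and 234 against 148 and 111 over 32 other pairs. After iterative correction the flank was below there too, at 197 and 205 against 382 and 295. Past 2.8 Mb there were 238 flank pairs and 7 others, so no comparison was made there. The expected count at these distances is itself set mostly by the flank, which has an end in 78.5% of the 710 pairs over 2.5 Mb.

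A comparison over the same constant-side partners gave another picture. For 47 of the 62 constant-side fragments the median count with the flank was above that with window 1 in both libraries, and for 5 it was below in both. The median over these partners was 120 and 126 counts with the flank, and 74.8 and 56.5 with window 1, although window 1 lies nearer. The mean count with the flank was 1.58 times that with window 1 (1.45 and 1.72 in replicates 1 and 2). This comparison, chosen after seeing the data, holds the partner primers fixed, whereas the primers of the flank and of window 1 differ. After iterative correction the end-to-end level against other pairs of the same length was 0.512 ± 0.0702. With that correction run on pairs over 100 kb only, and so without any pair within the flank, it was 1.23 ± 0.00403. This direction too turned with the way primers are corrected, and the part of the scaling was not tested.

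**Figure D3:**
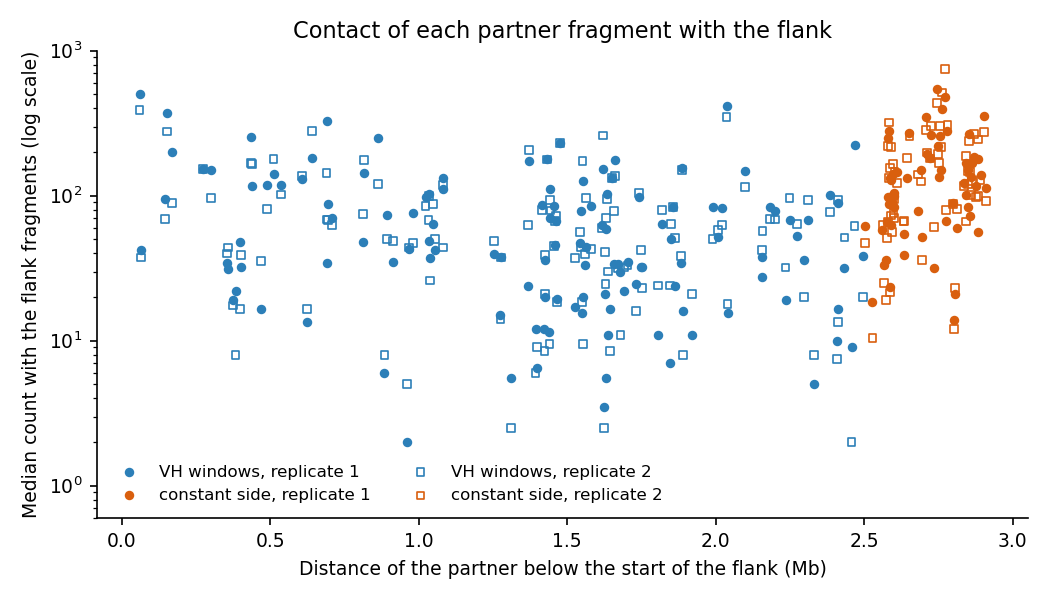
Median count with the flank fragments (log scale) of each of the 189 other fragments, against its distance below the start of the flank, for the VH windows (blue) and the constant side (orange), with filled circles for replicate 1 and open squares for replicate 2. Most constant-side fragments, past 2.5 Mb, lie above the middle of the VH fragments, whose median is 47.5 in replicate 1 and 51 in replicate 2.

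The constant-side fragments varied widely among themselves. In replicate 1 their median count with the flank ran from 14 to 546, and in replicate 2 from 10.5 to 744. The highest in replicate 1 was F38 (114502800 to 114510164), with 546 and 436, then F31 (114477117 to 114480873), with 480 and 744, and R33 (114486613 to 114491122), with 394 and 515. These 3 lie close together on the chromosome, and they also had high counts with window 1: 413 and 357, 302 and 328, and 408 and 305. Between R33 and F38, the fragments F34, R35, F36 and R37 had lower medians with the flank: 150 and 217, 259 and 303, 134 and 168, and 219 and 194. After iterative correction F38 had medians of 126 and 66.7, F31 97.5 and 121, and R33 106 and 80.8. The median corrected pair of the flank with the constant side had 98.6 and 103. F31 stood higher with the flank than with window 1 in both libraries, F38 did so too, and R33 did so only in replicate 2. F28 (114465909 to 114474052), just below them, had 278 and 306 with the flank against 156 and 115 with window 1. Among VH fragments the highest were F792, the last before the flank, with 503 and 388, and F233 (115211655 to 115215965), which is 2.04 Mb below the flank and had 418 and 347 counts against 63 and 60 with window 1. All of these fragments were picked once their values were known.

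The 17 flank fragments differed widely in their summed counts. R810 had the lowest summed counts, 23770 and 20218, and R851 the highest, 1155155 and 1108458, a 48.6-fold and a 54.8-fold range. R851, F850, F837, R840, R845 and F842, the 6 outermost, had the highest sums in both libraries, of which F842 was lowest with 318900 and 330506. These sums include pairs that share a HindIII site. F850-R851 alone, with 1074205 and 1036286 counts, makes up most of the sums of F850 and R851. The high ranks of these 2 fragments rest on that pair, and the size of the range rests partly on it. At the inner end R810 took only 44.6% and 42.2% of its counts from the flank, and 31.8% and 35.3% from the constant side. F850, with its shared-site pair included, took 98.6% and 98.3% from the flank and 0.555% and 0.731% from the constant side. The medians with the VH part followed the sums only in part. R851, with the highest sums, also had the highest medians, 182 and 191. However, R831, with sums of 124149 and 108089, had 102 and 138, while F850, with sums of 1112683 and 1075594, had 90 and 91. F820 (117292549 to 117295273) was lowest, with medians of 3 and 2 with the VH part, and 17 and 14 of its 108 pairs at 0. Split at 117300000, the inner part had a median of 31 counts with the VH part in both libraries, and the outer part 66 and 65. Over 2.5 Mb the inner part had 88.5 and 88.5, and the outer part 126 and 122. By these counts the outer part was higher at each range, and it held 7 of the 8 called contacts and 365 of the 557 pairs over 2.5 Mb. The order turned in some of the comparisons at equal distance. Over 2.5 Mb, ratios by medians in each bin were 1.01 and 1.15 for the inner part and 0.945 and 0.997 for the outer part, and iteratively corrected ratios were 0.610 and 0.759 against 0.371 and 0.441, whereas by means of counts they were 0.837 ± 0.0848 against 1.14 ± 0.222. With the VH part the corrected ratios were 0.612 and 0.628 against 0.536 and 0.550, whereas by means of counts they were 0.490 ± 0.0118 against 0.632 ± 0.0280.

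**Figure D4:**
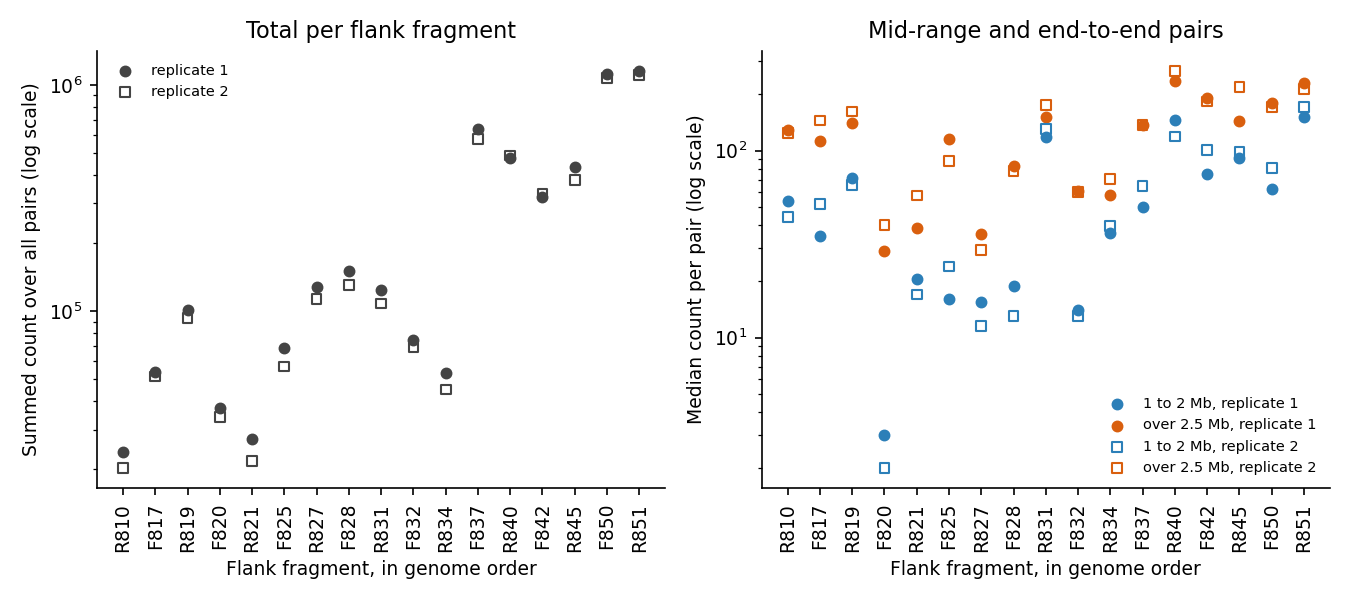
Left, summed count over all pairs of each flank fragment (log scale). Right, its median count over pairs 1 to 2 Mb apart (blue) and over 2.5 Mb apart (orange), with filled circles for replicate 1 and open squares for replicate 2. Sums include pairs that share a HindIII site and are highest at the outer end (R851, 1155155 and 1108458). Most of the sums of F850 and R851 come from their shared-site pair. The end-to-end median is above the mid-range median in all 17 fragments.

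Single contacts were called where the count stood at least 2 units of z above the count expected at its distance in both libraries, where z is the residual from a smooth fit of count on distance over the whole table, divided by its smoothed spread. Of 1674 flank pairs 14 were called (0.836%), where 1.45% of all pairs of the table were. By this rule 4 of 1074 pairs with the VH part were called, 8 of 528 with the constant side and 2 of 72 within the flank. Over 2.5 Mb, 1.13% of all pairs were called, all 8 of them with an end in the flank, against 0 of 153 pairs with none. Since 557 of the 710 pairs of that length belong to the flank, this count was not tested.

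The 8 called contacts over 2.5 Mb joined the flank with the constant side. The longest was F3-R845 (114341252 to 114353715 with 117334454 to 117337990), 2.99 Mb apart, with 1633 and 2352 counts, or 9.85 ± 2.16 times the expected count (SD, n = 2). F18-R831 (114404465 to 114408145 with 117305833 to 117307899), 2.90 Mb apart, had 5798 and 4260 counts. F842-R83 (117325410 to 117328516 with 114667887 to 114670119), 2.66 Mb apart, had 4923 and 7665. Next to R83, R81 (114664824 to 114667095) was called with F837, at 1412 and 1307 counts. F36-R810 (114496829 to 114501530 with 117265258 to 117268163), 2.77 Mb apart, had 2595 and 2278 counts, which is 14.0 and 11.8 times the expected count. The libraries differed in which of these pairs was highest, while each pair lay several times above expectation in both.

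Of the other 3 end-to-end calls, 1 shared a fragment with these: R845 was called also with F74 (114650839 to 114652513), at 1302 and 1517 counts. F31, the constant-side fragment with high counts throughout, was called with R840, 2.84 Mb apart, at 1427 and 2221, and with R851, 2.87 Mb apart, at 1224 and 1137. In the VH part, F165-R819 (114973711 to 114977500 with 117289594 to 117292548), 2.32 Mb apart, had the highest count of any flank pair with the VH part or the constant side, 97.5 ± 2.45 times the expected count. F837-R435 (115877939 to 115880010), 1.44 Mb apart, had 1938 and 1882 counts. F850-R499 (116166285 to 116168748), 1.18 Mb apart, had 1805 and 2289. F611-R831 (116559256 to 116561326), 747 kb apart, had 696 and 654 counts and a mean z of 2.19, the lowest of the 14. At a z threshold of 3, 10 flank pairs were called, where 0.652% of all pairs were, and at a threshold of 1.5, 18 were, where 2.29% of all pairs were. Just outside the rule lay F611-R840, with z of 1.68 and 2.23, and F40-R840, with 1.66 and 2.93.

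**Figure D5:**
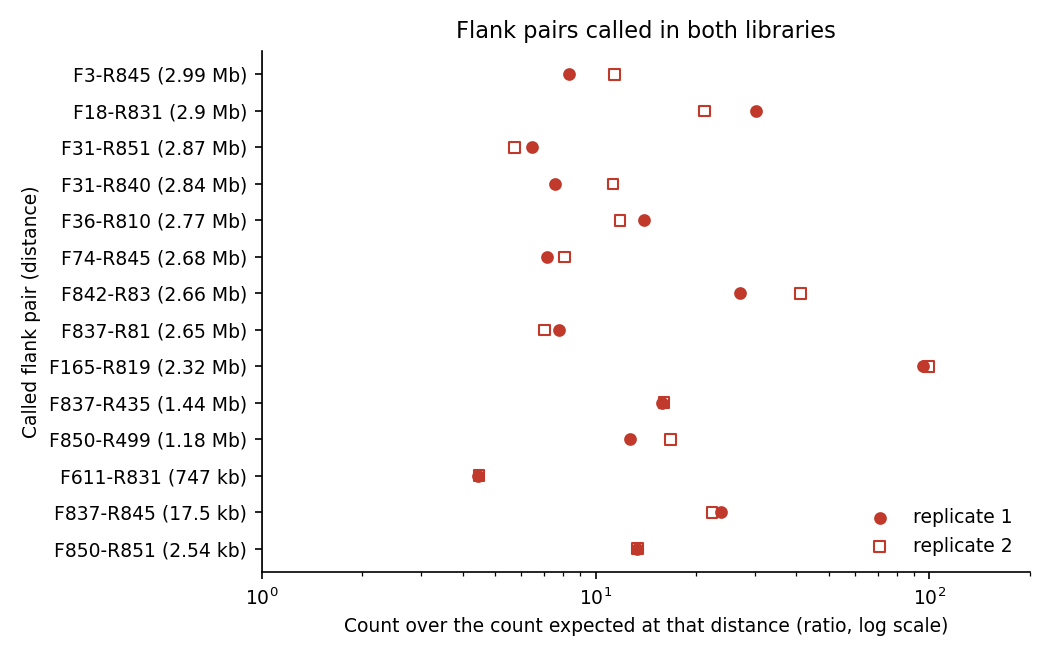
Count divided by the count expected at that distance (log scale) for the 14 called flank pairs, ordered by distance, with filled circles for replicate 1 and open squares for replicate 2. The pairs lie between 4.45 (F611-R831) and 99.3 (F165-R819) times the expected count, and the libraries lie farthest apart for F842-R83 (27.1 and 41.2).

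On the log2(count + 1) scale without any primer correction, 12 flank pairs passed a z of 2 in both libraries, 11 of them among the 14, where 0.671% of all pairs did. Correcting for primers moved the calls more. With additive effects of each primer removed on that scale, 6 flank pairs passed a z of 2 in both libraries, where 0.17% of all pairs did (18 of 10584). They were F165-R819 (corrected z of 3.63 and 3.52), F18-R831 (2.58 and 2.06), F837-R845 (2.48 and 2.35), F36-R810 (2.36 and 2.19), F842-R83 (2.18 and 2.10) and F828-R827 (2.13 and 2.04), of which the last shares a site and was not among the 14. Iterative correction over primers, run without the pairs that share a site, called 13 flank pairs, where 1.23% of all such pairs were called (129 of 10503). It kept 6 of the 13 earlier calls it could evaluate: F165-R819 (mean z 30.5), F36-R810 (14.1), F18-R831 (5.27), F837-R845 (4.84), F842-R83 (3.23) and F850-R499 (2.74). F165-R819, F36-R810, F18-R831, F842-R83 and F837-R845 were thus called under the 3 ways of reading the counts, 4 of them over 2 Mb apart. Of the other 9 calls, F850-R499 passed iterative correction alone, F850-R851 was not evaluated by it, and 7 passed neither correction. The part of primer recovery in these calls was not tested.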

How the data were processed

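The deposited values are counts of ligation products per primer pair, as all-by-all matrices from my5C with a step named transpurge, per the file headers. Novoalign and mm9 are named in the submitters' processing notes. Their settings, versions and any coverage correction were not given in the sources used here. No primer correction was visible in the counts. A planned gene desert on chromosome 5 was not analysed here.

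Expected counts and z came from LOWESS on log10 distance over all 10584 pairs (span 0.2, no robustness steps; statsmodels 0.14.6, Python 3.11.15). Contact levels used bins with edges at 0, 10, 20, 40, 70 and 100 kb within the flank and of 100 kb otherwise, with at least 20 reference pairs per bin. Iterative correction took 100 rounds without pairs that share a HindIII site. The pseudocount was 1. The functions were tested on simulated counts.

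The flank and the comparisons were chosen with earlier results of these data known. Named were all flank fragments, all called flank pairs by either z and the pairs sharing a site within the flank. Alternatives were other thresholds, spans, scales, primer corrections, depth, flank starts, low-count filters and single replicates.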

Additional observations from a re-analysis of the deposited data

How the results depend on the processing

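The 14 called flank pairs (1.45% of all pairs were called) were 6 with additive primer effects removed (5 of the 14, where 0.17% of all pairs were called). They were 10 to 18 under the other alternatives, 17 to 18 in single replicates. The share over all pairs was not computed for other spans, equal depth, the low-count filter or single replicates. Those counts are thus not set against the whole table. Iterative correction called 13 (1.23% of all pairs that share no site were called), of which 6 were among the 14. It turned the mean z of F31-R840 to -0.25, of F837-R81 to -0.29 and of F611-R831 to -0.53. The level within the flank (2.84) was 2.51 by medians, 4.00 with additive effects removed, 1.27 after iterative correction, 2.00 without its highest pair, 5.43 with the flank starting 50 kb higher, and 2.78 to 2.91 in single replicates. The flank-VH level (0.579) was 0.639 by medians, 0.950 with additive effects removed, 0.571 after iterative correction and 0.502 without F165-R819. It was 0.635 with the higher start, 0.563 to 0.594 in single replicates, and turned to 1.22 after iterative correction from pairs over 100 kb only. The end-to-end level (1.03) turned to 0.512 after iterative correction and 0.912 without F842-R83, ran from 0.907 to 1.15 in single replicates, and was 1.65 with the higher start, 1.23 after iterative correction from pairs over 100 kb and 1.58 against window 1 with the same partners. The end-to-end over mid-range ratio (2.56) was 2.29 by means, 1.19 after iterative correction, 1.23 with that correction from pairs over 100 kb, 2.76 over 2.6 Mb, 2.28 with the higher start and 2.48 to 2.65 in single replicates. By window, medians turned window 2 to 1.01 and window 5 to 0.546, iterative correction turned window 5 to 0.874 and the constant side to 0.498, and leaving out the highest pair turned window 5 to 0.566 and the constant side to 0.933, which was 0.927 in replicate 1 alone. A start 50 kb lower added no fragment. The correction from pairs over 100 kb and the comparison over the same partners were chosen after seeing the data. The causes were not tested. No paired analysis was possible because both libraries belong to 1 group. Depth limits pairs under 10 counts in both libraries, which are 13.0% of the flank-VH pairs and 3.79% of those with the constant side.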
